A study of Mus musculus with 69 samples.

Results

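Macrophages edited at Grn were compared directly with macrophages edited at Trem2, 4 days after editing. The comparison takes the 10 libraries of the 69 in the series whose labels give those targets and that time, 5 for each target, and uses no library of the Rosa26 editing control. The sample labels call the time hours, whereas the design text calls it days, and days are used here. Other edited loci and a later time, day 13, belong to the same series.

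All 10 samples were macrophages grown from the marrow of wild-type mice, whose strain and age are not given in the sources used here. Each biological replicate was pooled from the marrow of 6 mice, grown in the macrophage growth factor M-CSF at 50 ng/mL, frozen and thawed before editing. Both groups received Cas9 protein complexed with guide RNA, so they share the nuclease and the steps of thaw and culture. By design they differ in the locus that was cut, and they also differed in messages of other cells, given below. The 5 Grn libraries and Trem2 replicates 2 to 5 were made with the protocol labelled Regular, and Trem2 replicate 1 with the one labelled Low-input. Tests therefore compare 5 Grn with 4 Trem2 libraries, and the Low-input library is given beside them. Nothing in the labels says that samples with the same number came from the same pool, and p-values measure the spread between these samples.

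Grn encodes progranulin, a secreted glycoprotein that is carried to lysosomes and cut there into granulin peptides. Trem2 is a surface receptor of macrophages and microglia that binds lipids and lipoproteins and signals through the adaptor Tyrobp (DAP12) and the kinase Syk. Loss of either gene is linked to neurodegeneration, and both act in cells that take up lipid-rich debris.

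Levels are CPM, counts scaled to the library total. Changes are log2 fold changes ± SE, Grn minus Trem2, so a positive value means a higher level in Grn cells. A gene was called at a Benjamini-Hochberg adjusted p under 0.05 in edgeR's quasi-likelihood test over all 10456 genes tested. Library totals ran from 2358167 to 3698236 counts in Grn cells and from 2512773 to 3046913 in Trem2 replicates 2 to 5, with 4688285 in Trem2 replicate 1. In bulk samples, fewer cells with a message and less of the message per cell cannot be told apart.

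The targeted genes were examined first. Grn (ENSMUSG00000034708.13) stood at 689, 651, 711, 956 and 1153 CPM in Grn replicates 1 to 5 and at 3048, 3630, 3468 and 4267 CPM in Trem2 replicates 2 to 5. The Low-input Trem2 library had 3085 CPM. Every Grn library lay below every Trem2 library, and the change was -2.13 ± 0.15 (adjusted p = 1.36e-08). Trem2 (ENSMUSG00000023992.15) had 451, 328, 354, 377 and 342 CPM in Grn cells against 108, 108, 172 and 134 CPM in Trem2 cells, with 201 CPM in the Low-input library. Here every Trem2 library lay below every Grn library, and the change was 1.49 ± 0.14 (adjusted p = 4.05e-07). Both labels thus match the lower targeted message. The libraries read 3' tags, which can persist after small insertions or deletions, so the remaining level does not measure the remaining protein.

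Messages of brain cells stood above the other day 4 cells in 4 of 5 Grn libraries and in all 4 Trem2 Regular libraries, and did not cancel between the groups. The summed level of 24 neuronal, astrocyte and oligodendrocyte markers was 314 to 444 CPM in Grn cells, 445 to 640 CPM in Trem2 replicates 2 to 5, and 170 to 317 CPM in the other 24 day 4 libraries. Trem2 replicate 1 had 171 CPM, within the range of the other cells. Of 20 brain markers that passed the filter on low counts, 5 (25%) were called, against 13% of all tested genes. All 5 were higher in Trem2 cells, with Slc1a2 and Snap25 among them. Slc1a2, an astrocyte glutamate transporter, had 17.7 to 41.6 CPM in Grn cells and 61.6 to 78.4 CPM in Trem2 cells, without overlap (-1.14 ± 0.18, adjusted p = 0.000186). The 5 brain marker calls were 0 with all 10 libraries in the fit, 1 in the fit of all 69 libraries, 3 in that of 34 day 4 libraries, and 3 without Grn replicate 2, Trem2 replicate 2 or Trem2 replicate 3 and 2 without Trem2 replicate 5.

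Summed erythroid markers were 7.34 to 24.0 CPM in Grn cells and 17.4 to 36.4 CPM in Trem2 replicates 2 to 5, against 0.929 to 5.51 CPM in the other 24 libraries, and Slc4a1 was at 0 in all 9 libraries. Stromal markers summed to 15.0 to 26.5 CPM and 22.4 to 36.2 CPM, against 2.25 to 15.0 CPM elsewhere, and most of each sum was Sparc, with 12.7 to 24.0 CPM in Grn cells, 18.8 to 30.6 CPM in Trem2 cells and 0.843 to 10.3 CPM elsewhere. Col1a1, Col3a1, Dcn, Lum, Bgn and Pdgfrb had means under 1 CPM in both groups. Neutrophil markers summed to 14.5 to 30.5 CPM in Grn cells and 29.0 to 32.3 CPM in Trem2 cells, against 15.4 to 47.7 CPM elsewhere, with Ly6g and Mpo at 0. Dendritic, lymphocyte and mast cell markers each summed to under 6 CPM, and none of them passed the filter. The 8 macrophage markers, which check the labelled cell type, summed to 9981 to 13336 CPM in Grn cells and 13537 to 15499 CPM in Trem2 cells, against 10811 to 16143 CPM in the other 24 libraries, and 4 of 5 Grn libraries lay below that range. Most of this sum was Lyz2, with means of 7990 and 11690 CPM. Cd14 and Fcgr1 had the higher mean in Grn cells, as did, by little, Itgam and Cd68. The part of these other messages in the results below was not tested by any fit that could separate them from the groups.

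**Figure D1:**
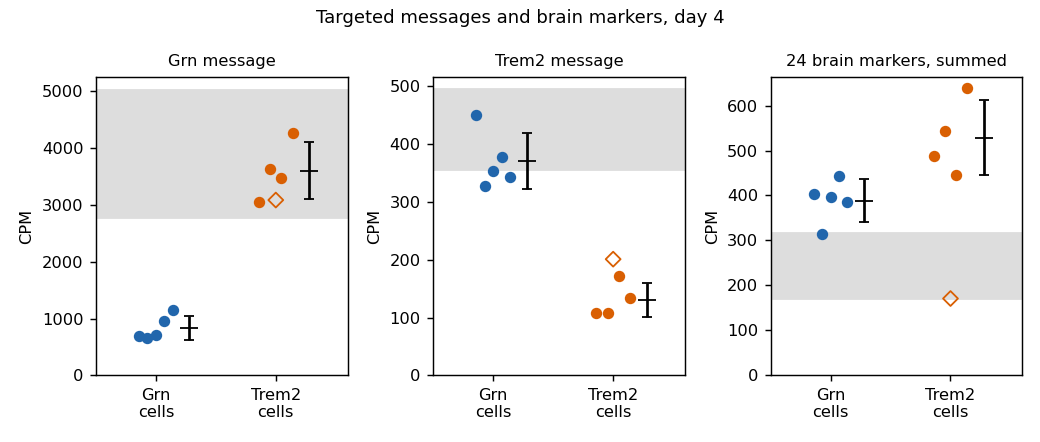
Level in CPM (vertical axes) of the Grn message, the Trem2 message and 24 brain markers summed, in day 4 Grn cells (blue) and Trem2 cells (orange); filled points are Regular libraries, the open diamond is the Low-input library, bars are the mean ± SD of the filled points and the grey band is the range of the other 24 day 4 libraries. Each targeted message is lowest in the cells edited at that gene, and the brain markers are highest in Trem2 replicates 2 to 5, at 445 to 640 CPM.

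Across all genes tested, 1357 were called, which is 13% of them. Grn cells had the higher level for 730 (6.98%) and Trem2 cells for 627 (6%). The 9 Regular libraries of the groups did not overlap for 1346 genes (12.9%), of which 1002 were called. Among called genes, 336 changed by more than 2-fold, 201 of them higher in Grn cells and 135 higher in Trem2 cells. More than 4-fold changes numbered 31 and 8. The median change over all tested genes was -0.02.

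The other 24 day 4 libraries, edited at Rosa26, Atp6v1a, Npc1, Pik3c3 or Ctsd and all Regular, show on which side each group lay, as a description with no test. For 799 of the 1357 called genes the Trem2 median lay outside the range of those 24 libraries and the Grn median inside it. The reverse held for 96 genes. Both medians were outside on opposite sides for 71 genes, outside on the same side for 61, and inside for 330. Among genes higher in Grn cells, 424 had a Trem2 median below the other libraries and a Grn median within them, while 49 had a Grn median above and a Trem2 median within. These classes were counted among called genes only, with no like count over all tested genes, so they do not say which group changed. Trem2 replicate 1, which entered no test, lay beyond the Grn range on the side of the other Trem2 libraries for 67.3% of called genes and beyond it on the other side for 10.5%. Its brain marker level was that of the other cells, and it differs in protocol. Over all tested genes it lay outside the Grn range, on either side, for 63.2%, a measure unlike the 67.3%, which counts 1 side.

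**Figure D2:**
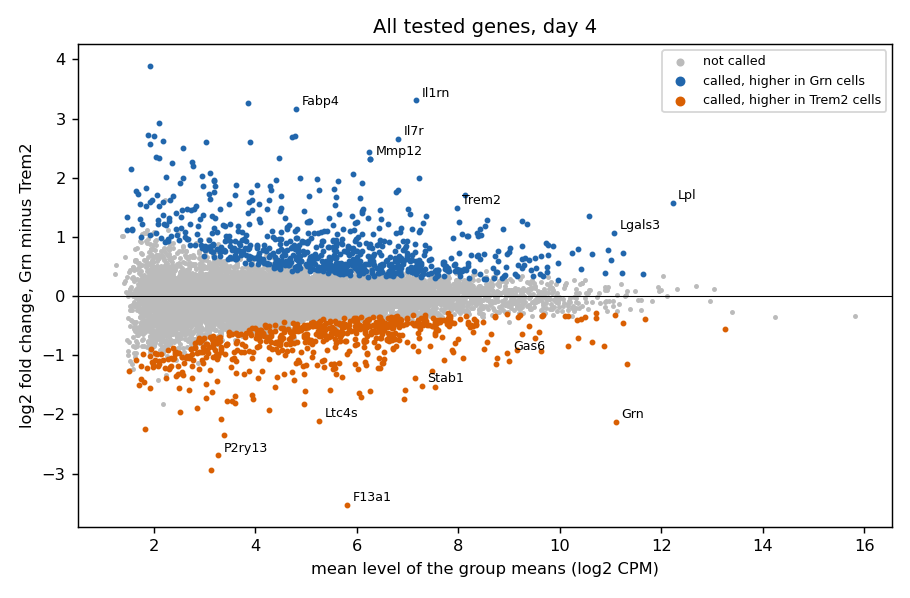
Log2 fold change, Grn minus Trem2 (vertical axis), against mean level in log2 CPM (horizontal axis) for the 10456 genes tested at day 4. Blue points are the 730 genes called higher in Grn cells, orange points the 627 called higher in Trem2 cells and grey points the rest.

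Il1rn, Serpinb9b and Fabp4 led the changes toward Grn cells. Il1rn, the secreted antagonist of the interleukin-1 receptor, had 219, 428, 248, 183 and 231 CPM in Grn cells against 19.0, 24.1, 29.0 and 32.6 CPM in Trem2 cells. The groups did not overlap, and Grn replicate 2 was the highest (3.31 ± 0.21, adjusted p = 6.8e-09). Fabp4, a fatty acid-binding protein of adipocytes and macrophages, had 64.9, 58.7, 47.8, 39.5 and 42.0 CPM against 5.25, 3.78, 8.91 and 3.98 CPM (3.16 ± 0.23, adjusted p = 2.05e-08). Il7r, the interleukin-7 receptor alpha chain, had 172, 180, 202, 195 and 224 CPM against 20.7, 23.7, 29.7 and 49.0 CPM (2.66 ± 0.18, adjusted p = 9.71e-09). Trem2 replicate 5 was the highest Trem2 library for Il7r and still lay below every Grn library. The Low-input Trem2 library read 24.7 CPM for Il1rn, 5.76 CPM for Fabp4 and 10.9 CPM for Il7r, on the side of the other Trem2 libraries each time. For these 3 genes the Trem2 libraries lay below the range of the other 24 day 4 libraries, whose lowest values were 83.3, 29.1 and 118 CPM.

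The other genes of this group of 10 were Serpinb9b, a serine protease inhibitor (3.26 ± 0.32), Pakap (2.71 ± 0.23), Angptl2, a secreted angiopoietin-like protein (2.69 ± 0.24), and Dhrs9, a short-chain dehydrogenase (2.61 ± 0.21). With them stood Chst11, a chondroitin sulfotransferase (2.60 ± 0.28), Gm17749 (2.50 ± 0.31) and Rgs1, a regulator of G-protein signalling (2.43 ± 0.24). Their largest adjusted p was 9.78e-06.

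F13a1, Dmpk and P2ry13 led the changes toward Trem2 cells. F13a1, the A subunit of coagulation factor XIII and a marker of alternatively activated macrophages, had 8.06, 8.15, 8.11, 15.1 and 6.49 CPM in Grn cells against 104, 124, 105 and 80.0 CPM in Trem2 cells. Grn replicate 4 was the highest Grn library and remained far below every Trem2 library (-3.53 ± 0.19, adjusted p = 3.78e-10). P2ry13, an ADP receptor, had 2.54, 3.27, 2.12, 2.87 and 2.16 CPM against 19.0, 19.3, 17.1 and 11.1 CPM (-2.69 ± 0.24, adjusted p = 2.45e-07). P2ry12, the ADP receptor known as a marker of resting microglia, had 8.48, 8.69, 7.41, 8.97 and 7.57 CPM against 34.5, 37.2, 34 and 16.7 CPM (-1.92 ± 0.21, adjusted p = 2.24e-06). For P2ry12, Trem2 replicate 5 was the lowest Trem2 library and still above every Grn library. Ltc4s, leukotriene C4 synthase, had 10.6 to 18 CPM in Grn cells and 37.8 to 73.3 CPM in Trem2 cells (-2.11 ± 0.19, adjusted p = 1.9e-07). In Trem2 replicate 1 these messages were also high, with 149 CPM of F13a1, 19.4 of P2ry13, 40.1 of P2ry12 and 142 of Ltc4s.

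Besides Grn itself, the remaining leading genes were Dmpk, a kinase known from myotonic dystrophy (-2.93 ± 0.40), Ripor2 (-2.35 ± 0.24), Id3, an inhibitor of helix-loop-helix factors (-2.08 ± 0.26), Vldlr, a lipoprotein receptor (-1.89 ± 0.25), and Cp, the copper-carrying ferroxidase ceruloplasmin (-1.82 ± 0.26). Their largest adjusted p was 6.14e-05. For Cp the Low-input library had 16.6 CPM, inside the Grn range of 5.43 to 23.3 CPM and apart from the other Trem2 libraries at 38.4 to 67.3 CPM. Its call was lost when the summed brain-marker level was added to the fit as a covariate, a level that does not overlap between the groups.

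**Figure D3:**
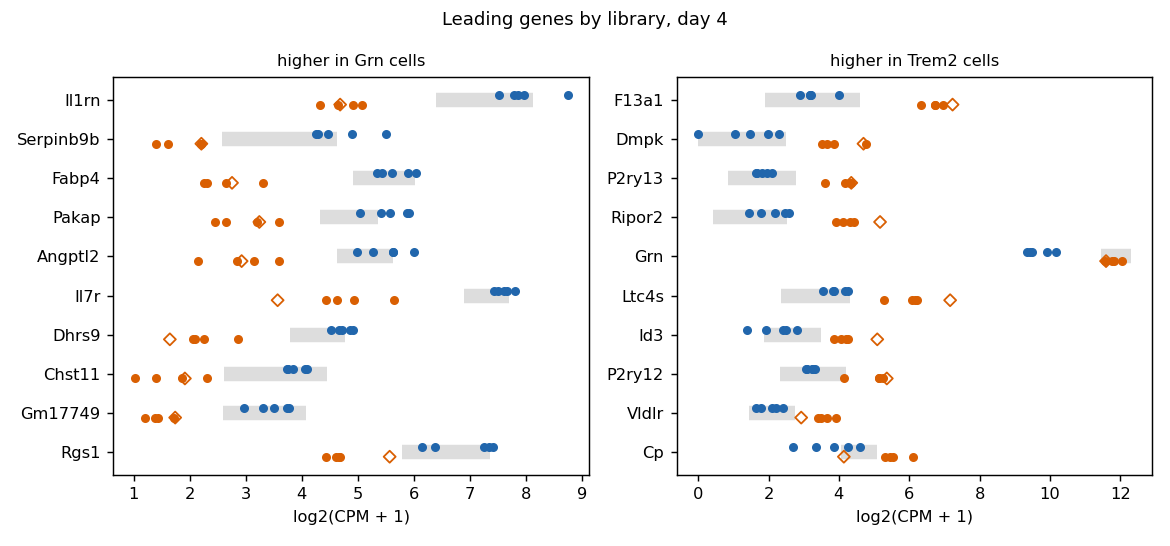
Levels as log2(CPM + 1) (horizontal axis) of the 10 leading genes in each direction, in Grn libraries (blue), Trem2 Regular libraries (orange) and the Low-input Trem2 library (open diamond), with the range of the other 24 day 4 libraries in grey. In the left panel the Trem2 points lie below the grey ranges, and in the right panel they lie above them except for Grn, for P2ry12 in replicate 5 and for Cp in the Low-input library.

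Of 25 genes known from lipid-associated macrophages, 22 passed the filter, 15 were called higher in Grn cells and 1, Apoe, higher in Trem2 cells, with a median change of 0.83 against -0.02 for all genes. The 16 calls were 72.7% of those tested, against 13% of all tested genes. Fabp5, a fatty acid-binding protein, had 524, 443, 390, 381 and 422 CPM in Grn cells against 124, 107, 147 and 144 CPM in Trem2 cells (1.72 ± 0.13, adjusted p = 2.05e-08). Lpl, the lipase that frees fatty acids from lipoproteins, had 7126, 8219, 7280, 6598 and 6670 CPM against 1744, 1849, 3005 and 2909 CPM (1.58 ± 0.15, adjusted p = 3.13e-07). Neither gene overlapped between groups, and the Low-input library read 139 and 2418 CPM. Mmp12, the macrophage elastase, changed by 2.32 ± 0.16, and Lgals3, a lectin that binds damaged lysosomes, by 1.07 ± 0.10. Cd36, a scavenger receptor for oxidised lipoproteins, had 1507 to 1824 CPM against 904 to 988 CPM (0.80 ± 0.10, adjusted p = 6.15e-06). Apoe, the lipoprotein component, went the other way, with 645, 302, 395, 597 and 781 CPM against 875, 1015, 1021 and 1230 CPM (-0.93 ± 0.20, adjusted p = 0.00256). The Low-input library, 1 library of another protocol, had 1155 CPM of Apoe, among the other Trem2 libraries. With the brain-marker covariate, a level that does not overlap between the groups, the Apoe change was -0.39 and not called (adjusted p = 0.601). The part of brain messages in the Apoe change was not tested.

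Sterol synthesis and uptake genes, the targets of the transcription factor SREBP2, were higher in Grn cells as a group. All 24 tested members had a positive change, with a median of 0.84. Of them, 18 (75%, against 13% of all tested genes) were called higher in Grn cells and 0 higher in Trem2 cells. Cyp51, the lanosterol demethylase, had 89.5, 147, 116, 79.3 and 80.6 CPM in Grn cells against 21.7, 38.5, 38.9 and 29.0 CPM in Trem2 cells (1.66 ± 0.19, adjusted p = 3.69e-06). Msmo1, a sterol oxidase, had 174, 241, 223, 166 and 143 CPM against 76.5, 69.5, 69.9 and 54.9 CPM (1.47 ± 0.15, adjusted p = 6.49e-07). In both, Grn replicate 2 was the highest library and no library overlapped. Hmgcs1, which makes the substrate of HMG-CoA reductase, had 126 to 192 CPM against 82.0 to 90.3 CPM (0.93 ± 0.11, adjusted p = 9.49e-06). Sqle, squalene epoxidase, changed by 1.32 ± 0.18 and Sc5d, a late sterol desaturase, by 1.20 ± 0.16. A total of 5 members stayed called with the brain-marker covariate. On the log2 scale, relative to the median of the other 24 day 4 libraries, members had medians of 0.02 to 0.71 in Grn cells. The medians were -0.63 to -0.40 in Trem2 replicates 2 to 5. The other 24 libraries ran from -0.16 to 0.27, a range that held the middle Grn library, at 0.17.

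Promoter sequence is shown for sterol genes because SREBP factors are known to act on these promoters together with NF-Y, which binds CCAAT boxes. RefSeq entries on build GRCm38.p6, covering 250 bases before to 50 after each gene start, were at hand for 17 of the 25 sterol genes. The deposited counts rest on another build, so these coordinates refer to GRCm38.p6 alone. Each line gives a stretch of 100 bases upstream of the start, placed to hold the matches, 5′ to 3′ on the gene's strand, with CCAAT (or its reverse complement) in capitals and, in Hmgcs1, also CACCCCAC, a sterol regulatory element.
Hmgcs1, chr13:119690215-119690314, plus strand: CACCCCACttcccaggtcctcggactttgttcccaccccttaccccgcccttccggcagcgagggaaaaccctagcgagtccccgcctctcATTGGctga
Cyp51, chr5:4104698-4104797, minus strand: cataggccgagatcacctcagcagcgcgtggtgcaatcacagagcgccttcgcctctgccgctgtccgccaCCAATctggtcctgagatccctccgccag
Msmo1, chr8:64733579-64733678, minus strand: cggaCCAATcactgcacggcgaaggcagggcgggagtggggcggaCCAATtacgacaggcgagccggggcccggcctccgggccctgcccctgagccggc

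CCAAT, read on both strands, was present in 16 of the 17 sterol promoters (94.1%), in 43.6% of the 8047 promoters of tested genes and in 41.1% of all 27025 genes with a promoter entry. It was also frequent in lists that changed little, with 87.5% of cell cycle, 85.7% of MHC class I and 100% of 4 MHC class II promoters. CACCCCAC was present in 2 of 17 sterol promoters (11.8%), against 3.8% of promoters of tested genes and 3.3% of all. In all 10 motifs were looked at, and those described were picked after their shares had been seen, so the shares are a description with no test. Sqle was also looked up and gave no stretch to show, so the sterol gene lines above are matches by choice. A match of letters is not a bound site.

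Fatty acid synthesis genes had a median change of 0.52. Of 12 tested, 5 (41.7%, against 13% of all tested genes) were called higher in Grn cells and 0 higher in Trem2 cells. Acsl3, an acyl-CoA synthetase, had 84.1 to 122 CPM against 55.4 to 69.9 CPM (0.71 ± 0.12, adjusted p = 0.00034), and Fads2, a fatty acid desaturase, had 18.2 to 23 CPM against 8.86 to 13.5 CPM (0.84 ± 0.17). The count was 3 in the fit of all 10 libraries and 1 with the brain-marker covariate. It was also 3 without Grn replicate 2, without Trem2 replicate 2 or without Trem2 replicate 3.

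Cholesterol efflux genes driven by LXR, the oxysterol receptor, leaned toward Trem2 cells, with 4 of 12 called higher in Trem2 cells, 1 higher in Grn cells and a median of -0.20. Together these calls were 41.7% of the tested members, against 13% of all tested genes. Abca1, the exporter that loads lipid onto apolipoproteins, had 97.5, 104, 88.2, 162 and 174 CPM in Grn cells against 207, 196, 198 and 296 CPM in Trem2 cells (-0.85 ± 0.18, adjusted p = 0.00245). Trem2 replicate 5 was the highest, and the Low-input library, at 143 CPM, fell inside the Grn range. Smpdl3a, a phosphodiesterase induced by LXR, changed by -0.72 ± 0.10. Nr1h3, which encodes LXR alpha itself, was the member higher in Grn cells, with 12.3 to 20.0 CPM against 4.92 to 11.9 CPM (0.87 ± 0.22, adjusted p = 0.012), and its call was lost without Trem2 replicate 2. With the brain-marker covariate 1 member stayed called.

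Glycolytic and hypoxia-responsive genes were higher in Grn cells for 13 of 23 tested members and higher in Trem2 cells for 0, with a median of 0.54. That is 56.5% called, against 13% of all tested genes. Slc16a3, the lactate exporter MCT4, had 33.9, 51.6, 34.9, 24.0 and 24.3 CPM against 5.58, 8.60, 8.91 and 11.5 CPM (1.96 ± 0.24, adjusted p = 8.41e-06). Ldha, lactate dehydrogenase A, had 1183, 1511, 1016, 955 and 916 CPM against 604, 574, 620 and 561 CPM (0.90 ± 0.13, adjusted p = 3.5e-05). Neither gene overlapped among Regular libraries. The Low-input library read 10.0 CPM for Slc16a3, with the other Trem2 libraries, but 1012 CPM for Ldha, inside the Grn range. The enzymes Pgam1, Tpi1 and Pgk1 changed by 0.81 ± 0.11, 0.81 ± 0.10 and 0.76 ± 0.12. Adding the brain-marker covariate left 4 members called.

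The hypoxia-inducible factors are known to bind the core ACGTG, so promoter stretches of called members are shown with ACGTG (or its reverse complement) in capitals, in the same format and build.
Slc16a3, chr11:120948967-120949066, plus strand: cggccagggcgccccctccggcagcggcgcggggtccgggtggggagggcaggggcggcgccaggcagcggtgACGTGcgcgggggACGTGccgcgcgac
Ldha, chr7:46845704-46845803, plus strand: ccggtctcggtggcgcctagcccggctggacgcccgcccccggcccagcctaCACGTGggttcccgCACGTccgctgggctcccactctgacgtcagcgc
Pgk1, chrX:106186950-106187049, plus strand: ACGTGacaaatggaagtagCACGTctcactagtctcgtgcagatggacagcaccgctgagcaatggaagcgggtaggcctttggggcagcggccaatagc

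ACGTG was present in 18 of 24 promoters of this list (75%), against 30.2% of promoters of tested genes and 21.8% of all. The share was 50% in the p53, V-ATPase and progranulin partner lists. Tpi1 was also looked up and held no match before its start, so the lines above are matches by choice.

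Of 17 tested genes known from resident or alternatively activated macrophages, 9 were called higher in Trem2 cells and 3 higher in Grn cells, with a median of -0.49. The 12 calls were 70.6% of those tested, against 13% of all tested genes. Stab1, a scavenger receptor, had 67.9, 76.0, 88.5, 82.9 and 91.0 CPM in Grn cells against 217, 239, 198 and 271 CPM in Trem2 cells (-1.52 ± 0.11, adjusted p = 2.62e-08). Ednrb, an endothelin receptor, had 45.4 to 69.8 CPM against 152 to 208 CPM (-1.74 ± 0.13, adjusted p = 3.13e-08). Gas6, the ligand of the TAM receptors, had 266, 375, 329, 384 and 354 CPM against 694, 624, 662 and 664 CPM (-0.97 ± 0.10, adjusted p = 1.11e-06). None of these 3 overlapped between groups, and the Low-input library lay with the other Trem2 libraries or, for Ednrb, just below them at 148 CPM. Cbr2, a carbonyl reductase, changed by -1.61 ± 0.15. In Trem2 replicates 2 to 5 the median of the list stood 0.27 to 0.78 above the median of the other 24 day 4 libraries. In Grn cells it ran from -0.23 to -0.01, and in those 24 libraries from -0.24 to 0.20.

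Phagocytic and scavenger receptors divided by member, with 8 of 20 higher in Trem2 cells and 4 higher in Grn cells. In this list 60% were called, against 13% of all tested genes. Mertk, the receptor tyrosine kinase for apoptotic cell uptake that Gas6 bridges to, had 44.5, 38.6, 38.5, 44.9 and 58.4 CPM against 94.5, 112, 81.5 and 113 CPM (-1.16 ± 0.14, adjusted p = 7e-06). Fcgr2b, the inhibitory Fc receptor, had 17.7 to 22.8 CPM against 40.3 to 51.0 CPM (-1.17 ± 0.14, adjusted p = 6.64e-06). Cd36, above, was among those higher in Grn cells.

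Among chemokine and purinergic receptors, 5 of 15 were higher in Grn cells and 4, P2ry12 and P2ry13 among them, higher in Trem2 cells. C3ar1, the complement C3a receptor, had 899, 958, 1040, 1015 and 1160 CPM against 627, 713, 729 and 788 CPM, without overlap (0.49 ± 0.10, adjusted p = 0.00185). The 9 calls were 60% of those tested, against 13% of all tested genes, and 4 remained with the brain-marker covariate.

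Of 20 tested genes of the Trem2 signalling pathway and family, Trem2 itself was the 1 called higher in Grn cells, and 5 were called higher in Trem2 cells. Cd33, an inhibitory sialic acid receptor of myeloid cells, had 22.1, 37.5, 30.0, 37.3 and 33.3 CPM against 105, 106, 117 and 85.6 CPM (-1.70 ± 0.14, adjusted p = 5.51e-08). The Low-input library had 142 CPM, and the other 24 day 4 libraries 13.0 to 34.7 CPM, below every Trem2 library. Pik3cg, a phosphoinositide kinase, changed by -0.75 ± 0.11 and Ms4a6d, of a membrane family linked to Trem2, by -0.42 ± 0.10. Tyrobp, the adaptor, was not called, with 759 to 1108 CPM against 936 to 1029 CPM (-0.18 ± 0.12, adjusted p = 0.364). The 6 calls were 30% of those tested, against 13% of all tested genes, and 3 remained with the brain-marker covariate.

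Immediate early genes, induced within minutes by many stimuli, were higher in Grn cells for 9 of 13 members and higher in Trem2 cells for 0. In all 69.2% were called, against 13% of all tested genes, and their median change of 1.05 was the largest among the gene lists. Egr1 had 10.6, 16.6, 14.8, 15.8 and 14.9 CPM in Grn cells against 3.70, 3.78, 4.62 and 2.79 CPM in Trem2 cells (1.94 ± 0.22, adjusted p = 4.06e-06). Fos had 27.6, 25.0, 44.8, 39.5 and 38.4 CPM against 8.86, 12, 10.8 and 11.1 CPM (1.69 ± 0.19, adjusted p = 4.15e-06). Both encode transcription factors, and neither overlapped between groups. Egr2, Atf3 and Dusp1, a MAP kinase phosphatase, changed by 1.86 ± 0.26, 1.44 ± 0.19 and 1.25 ± 0.16. Relative to the median of the other 24 day 4 libraries, the median of the list ran from -1.32 to -1.06 in Trem2 cells. It ran from -0.46 to -0.19 in Grn cells, and in those 24 libraries from -0.37 to 0.24.

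Chemokine ligands were higher in Grn cells for 7 of 12 members and higher in Trem2 cells for 0. The share called was 58.3%, against 13% of all tested genes, and the median change was 0.84. Ccl4 had 97.1, 113, 120, 101 and 114 CPM against 32.2, 34, 28 and 19.9 CPM (1.91 ± 0.14, adjusted p = 2.05e-08). Ccl2, which attracts monocytes, had 125, 274, 279, 139 and 62.5 CPM against 63.3, 55.0, 47.8 and 32.2 CPM (1.80 ± 0.31, adjusted p = 0.000418). Grn replicate 5 overlapped the Trem2 libraries for Ccl2, while Ccl4 did not overlap. The Low-input library had 88.5 CPM of Ccl4 and 261 CPM of Ccl2, near or inside the Grn range, and with all 10 libraries in the fit 2 members stayed called. Ccl7 changed by 1.67 ± 0.30 and Ccl9 by 0.69 ± 0.12, with 110 and 1129 CPM in the Low-input library, inside the Grn range each time. With the brain-marker covariate 1 member stayed called.

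Inflammatory effectors gave 3 calls toward Grn cells and 1 toward Trem2 cells among 14 tested, or 28.6% against 13% of all tested genes. Besides Il1rn, the SLAM-family receptors Slamf7 and Slamf8 changed by 1.94 ± 0.18 and 2.26 ± 0.30. Clec4n, the mouse Dectin-2 receptor, had 3.17 to 13.2 CPM in Grn cells against 21.1 to 25.1 CPM in Trem2 cells (-1.67 ± 0.25, adjusted p = 9.01e-05).

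Interferon-stimulated genes were higher in Grn cells for 9 of 32 and higher in Trem2 cells for 1, with a median of 0.51. Their share called was 31.2%, against 13% of all tested genes. Rsad2, the antiviral enzyme viperin, had 197, 251, 223, 215 and 307 CPM against 68.9, 73.3, 110 and 117 CPM (1.36 ± 0.15, adjusted p = 3.54e-06). Cmpk2, a mitochondrial nucleotide kinase, changed by 1.20 ± 0.17 and Isg15, a ubiquitin-like modifier, by 0.81 ± 0.15. The Low-input library had 107 CPM of Rsad2, with the other Trem2 libraries, but 38.0 CPM of Cmpk2 and 97.5 CPM of Isg15, in or above the Grn range. The 10 calls became 3 with all 10 libraries, 3 with the brain-marker covariate and 6 without Trem2 replicate 2.

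Lysosomal genes did not move as a group. Of 35 hydrolases, 5 were called higher in Grn cells and 6 higher in Trem2 cells, with a median of -0.08. Their share called was 31.4%, against 13% of all tested genes. Ctss, cathepsin S, had 3128, 2774, 2777, 3062 and 3466 CPM in Grn cells against 1730, 1711, 1979 and 1896 CPM in Trem2 cells (0.72 ± 0.10, adjusted p = 4.77e-05). Ctsl, cathepsin L, which cuts progranulin, had 2141, 2267, 1949, 1812 and 1739 CPM against 1173, 1041, 1172 and 1389 CPM (0.72 ± 0.11, adjusted p = 9.89e-05). Ctsc, cathepsin C, which activates granule proteases, went the other way with 205, 166, 152, 181 and 188 CPM against 389, 364, 356 and 357 CPM (-1.05 ± 0.11, adjusted p = 8.39e-07). None of the 3 cathepsins overlapped between groups. Ctsd, cathepsin D, was not called, with 3711 to 4571 CPM against 3749 to 3921 CPM (0.09 ± 0.10, adjusted p = 0.623). Gla, alpha-galactosidase, changed by 0.48 ± 0.11. The 11 calls became 3 with the brain-marker covariate and 7 without Trem2 replicate 5.

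Lysosomal membrane and transport genes gave 5 calls toward Grn cells and 2 toward Trem2 cells among 25. Their share called was 28%, against 13% of all tested genes. Gnptab, which adds the mannose 6-phosphate tag to hydrolases, had 51.7 to 95.1 CPM against 29.2 to 38.5 CPM (0.96 ± 0.15, adjusted p = 0.000122). Igf2r, the receptor for that tag, changed by 0.87 ± 0.17, and Sort1, sortilin, a receptor that takes up progranulin, by -0.64 ± 0.15. The Low-input library had 52.0 CPM of Gnptab and 68.9 CPM of Igf2r, inside the Grn range each time. Sort1 had 18.7 to 28.9 CPM in Grn cells and 30.5 to 46.2 CPM in Trem2 cells, and its call was lost with all 10 libraries and with the brain-marker covariate. The 7 calls became 0 with that covariate and 3 without Trem2 replicate 3. Among 12 tested genes known as partners of progranulin, Grn included, 2 were higher in each direction, and these were Ctsl, Igf2r, Sort1 and Grn. The 4 calls were 33.3% of those tested, against 13% of all tested genes. Their number was 7 in the fit of all 69 libraries and 2 with the covariate.

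V-ATPase subunits were called higher in Grn cells for 4 of 18 and higher in Trem2 cells for 0. The share called was 22.2%, against 13% of all tested genes. Atp6v0d2, a subunit isoform of macrophages and osteoclasts, had 161, 117, 109, 114 and 136 CPM against 19.4, 16.9, 29.0 and 37.0 CPM (2.32 ± 0.19, adjusted p = 7.68e-08). The widely expressed Atp6v1b2 changed by 0.47 ± 0.10. Atp6v0d2 also belongs to the cell fusion and osteoclast list, of which 4 of 8 were higher in Grn cells and 2 higher in Trem2 cells. Dcstamp, a membrane protein needed for fusion, had 4.67 to 9.75 CPM against 0.328 to 1.72 CPM (2.35 ± 0.39, adjusted p = 0.000264). In the fusion list 75% of tested members were called, against 13% of all tested genes. The fusion list had 3 calls with all 10 libraries and 1 with the brain-marker covariate, and the V-ATPase list 2 and 1.

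**Figure D4:**
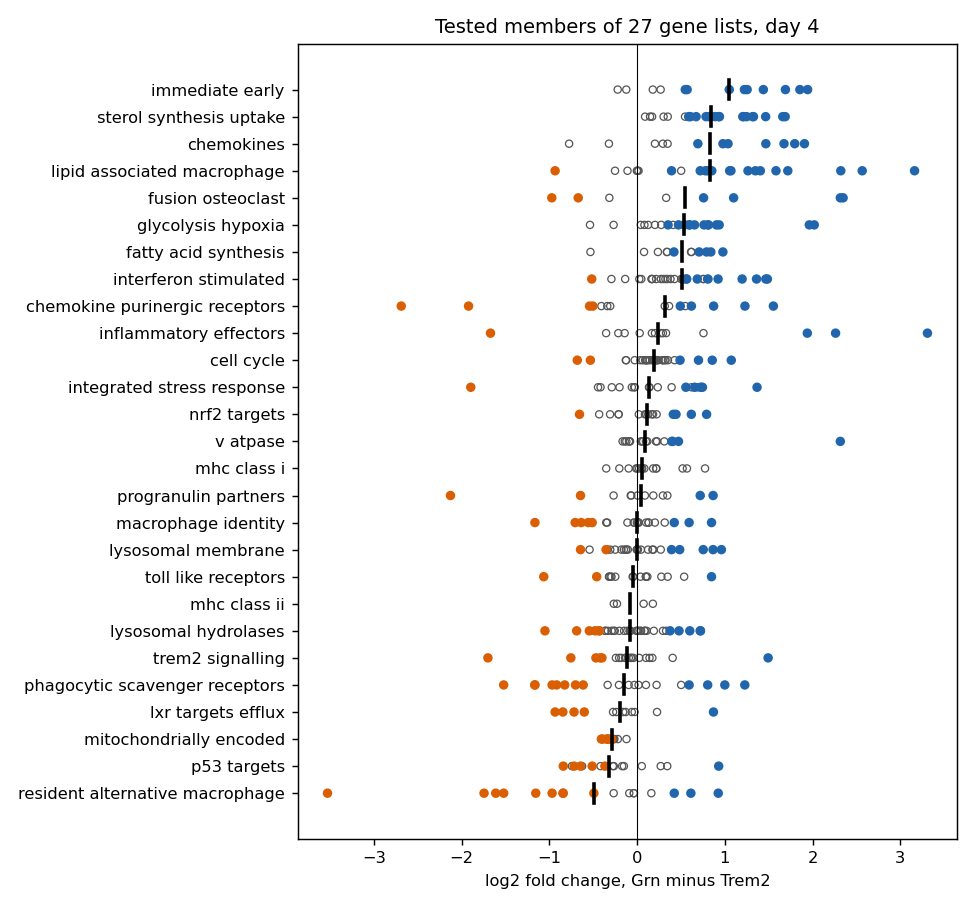
Log2 fold change, Grn minus Trem2 (horizontal axis), of the tested members of each gene list (rows, ordered by median); filled points are called members (blue higher in Grn cells, orange higher in Trem2 cells), open points are not called, and the black bar is the median. Medians run from -0.49 for resident and alternatively activated macrophage genes to 1.05 for immediate early genes.

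Macrophage identity genes were called in both directions, with 3 of 22 higher in Grn cells and 5 higher in Trem2 cells. Their share called was 36.4%, against 13% of all tested genes. Csf1r, the M-CSF receptor, had 404, 397, 412, 513 and 680 CPM against 595, 689, 711 and 975 CPM, and the groups overlapped (-0.64 ± 0.15, adjusted p = 0.00759). Its call was lost without Trem2 replicate 5, with all 10 libraries and with the brain-marker covariate. Cd14, a lipopolysaccharide co-receptor, had 99.2 to 130 CPM against 40.9 to 83.8 CPM (0.85 ± 0.17, adjusted p = 0.00173). Of 17 Toll-like receptor genes, Cd14 was the one higher in Grn cells, and 2 were higher in Trem2 cells, with Tlr2 at -1.06 ± 0.13. The share called in that list, 17.6%, was near the 13% of all tested genes. These 3 calls were 5 in the fit of all 69 libraries. The identity list had 5 calls with all 10 libraries and 2 with the brain-marker covariate.

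No member of the MHC lists was called by edgeR among 4 class II and 15 class I genes tested, and DESeq2 and voom also called 0. At an unadjusted p under 0.05 the count was 1, the peptide transporter subunit Tap2, which was also the number of class I calls with no filter. The class II genes Ciita, H2-Aa, H2-Ab1 and H2-Eb1 did not pass the filter on low counts and were not tested. Cd74, the invariant chain, had 1.90 to 8.11 CPM in Grn cells and 0.985 to 8.36 CPM in Trem2 cells. B2m had 2439 to 2852 CPM against 2261 to 2725 CPM (0.08 ± 0.10), H2-K1 changed by 0.05 ± 0.14 and H2-D1 by 0.18 ± 0.12.

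Stress and growth lists were called in both directions, for 31.6% of tested integrated stress response genes, 31.2% of NRF2 targets, 37.5% of p53 targets and 20% of cell cycle genes, against 13% of all genes. Of 19 genes of the integrated stress response, 5 were higher in Grn cells and 1, Vldlr, higher in Trem2 cells. Atf4, its central transcription factor, had 336, 466, 311, 260 and 246 CPM against 189, 207, 197 and 182 CPM (0.72 ± 0.14, adjusted p = 0.00154). The Low-input library had 254 CPM of Atf4, inside the Grn range. Of 16 NRF2 targets, 4 were higher in Grn cells, with Srxn1, sulfiredoxin, at 0.62 ± 0.13, and 1, Mgst1, a microsomal glutathione transferase, at -0.66 ± 0.14. Under the brain-marker covariate 1 stress response call and 0 NRF2 calls remained. Of 16 p53 targets, 5 were higher in Trem2 cells, with Zmat3, an RNA-binding protein, at -0.84 ± 0.12, and 1, the kinase Plk2, higher in Grn cells at 0.93 ± 0.21. With that covariate 2 of the 6 remained.

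Cell cycle genes were called for 4 of 30 toward Grn cells and 2 toward Trem2 cells. Pcna, the replication clamp, had 452, 502, 533, 436 and 324 CPM against 203, 190, 235 and 219 CPM (1.07 ± 0.13, adjusted p = 5.43e-06), while the Low-input library had 430 CPM. The 6 calls were 3 with all 10 libraries, 3 with the brain-marker covariate, 2 without Trem2 replicate 3 and 11 in the fit of all 69 libraries. All 13 mitochondrially encoded messages had a negative change, with a median of -0.29. Of these, 6 (46.2%, against 13% of all tested genes) were called higher in Trem2 cells. Among them, mt-Atp6 had 1002 to 1299 CPM against 1377 to 1593 CPM (-0.41 ± 0.10, adjusted p = 0.00866) and mt-Co1 changed by -0.39 ± 0.10. The 6 calls became 0 with the brain-marker covariate, 2 with no filter, 2 without Grn replicate 3, 2 without Trem2 replicate 2 and 1 without Trem2 replicate 5.

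**Figure D5:**
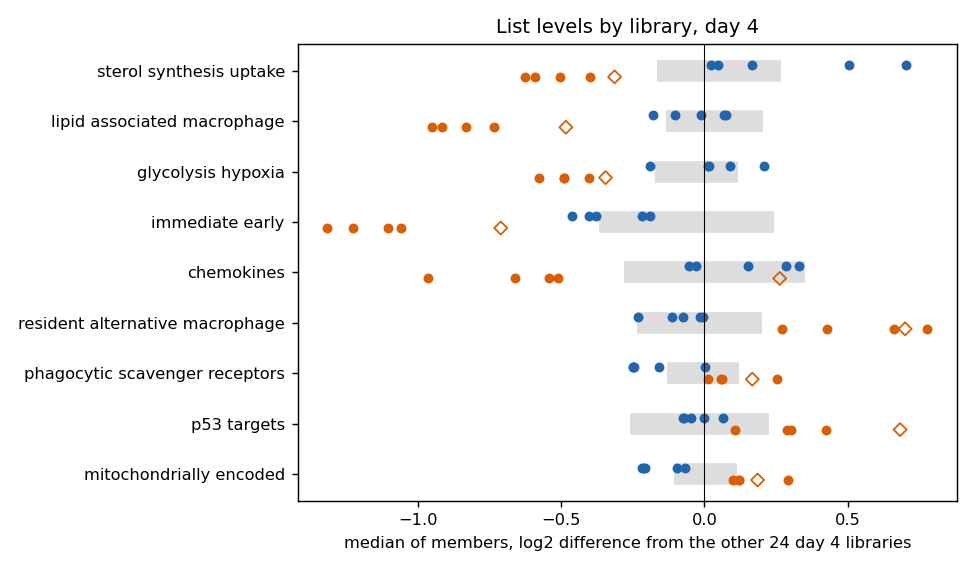
Median over list members of the log2 difference from the median of the other 24 day 4 libraries (horizontal axis) for 9 lists (rows), in Grn libraries (blue), Trem2 Regular libraries (orange) and the Low-input Trem2 library (open diamond), with the range of the other 24 libraries in grey. For sterol, lipid-associated, glycolytic, immediate early and chemokine genes the Trem2 Regular libraries lie below the grey range, while the Low-input library lies inside it for chemokines.

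The same contrast at day 13 could be tested within the Low-input protocol, with Grn replicates 3 and 4 against 5 Trem2 libraries. It called 4536 of 10973 genes (41.3%). Of the genes called at day 4, 1016 were also called at day 13, 998 of them in the same direction and the rest in the opposite one. The 998 are 73.5% of the day 4 calls and 22% of the day 13 calls. Day and protocol cannot be told apart between these fits. F13a1 changed by -6.35, Fabp4 by 4.24, Fabp5 by 3.38, Cd33 by -3.26, Il7r by 3.08 and Il1rn by 2.68 at day 13. Some day 4 differences were not called at day 13, with Fos at 0.16 (adjusted p = 0.67) and Cmpk2 at 0.12 (adjusted p = 0.68). Whether the contrast differed between days was not tested.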

How the data were processed

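RNA was measured as 3' tags with unique molecular identifiers, sequenced single-end at 75 bp (per the labels). The authors deposited a table of estimated counts for 56980 genes, for which the submitters' processing notes name Salmon and the build GRCm39; versions are not given in the sources used here. Of the values above 0, 31.2% are not whole, and all were rounded for the tests. All 69 library columns were matched to samples by name, and libraries of the same group differed by more than sampling noise.

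Tests used R 4.3.3 and edgeR 4.0.16: filterByExpr by group (10456 genes kept), TMM scaling, a quasi-likelihood fit of 5 Grn and 4 Trem2 Regular libraries, two-sided, with Benjamini-Hochberg adjustment over all tested genes. The SE is the size of the change over the root of the F statistic. CPM uses the library total. The fit was tested on simulated counts. Alternatives included DESeq2 1.42.0 and limma 3.58.1 (voom). Counting error limits low genes: 1 count is under 0.5 CPM here.

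Members, lists and promoter motifs were chosen with earlier results of these data known. Named genes are the targeted genes, the 10 largest non-overlapping called changes in each direction with a mean of at least 10 CPM in the higher group, up to 5 called members of each list in order of p with any member a list turns on, and up to 3 uncalled members of the lists with fewest calls; Tyrobp, Ctsd and Tap2 were added with their values seen. Promoters came from RefSeq (GRCm38.p6), matched by symbol; 8 of the 10 motifs looked at are tabulated, and the other 2, of interferon and serum response, were seen only in a first look. Some genes are not reported here.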

Additional observations from a re-analysis of the deposited data

Results flagged for a closer look

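In each of the following, a single library stood far from the rest of its group, by a gap that chance gives in about 1 in 20 groups of such size. Many genes and marker sums were looked at in this way, so chance alone would give some such gaps. Grn replicate 1 had 41.56 CPM of Pik3cg (others 55.1 to 59.9), 123.4 CPM of Mgst1 (others 79.3 to 89.7) and 13340 CPM of summed macrophage markers (others 9981 to 10140). Grn replicate 2 had 427.6 CPM of Il1rn (others 183 to 248) and 265.2 CPM of Tpi1 (others 197 to 214). Grn replicate 4 had 15.07 CPM of F13a1 (others 6.49 to 8.15). Trem2 replicate 5 had 16.71 CPM of P2ry12 (others 34 to 37.2), 83.57 CPM of Cbr2 (others 122 to 130) and 296.1 CPM of Abca1 (others 196 to 207), and Trem2 replicate 2 had 0.3282 CPM of Dcstamp (others 1.59 to 1.72). The Dcstamp values of Trem2 cells rest on very few counts, where counting error is large.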

How the results depend on the processing

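Of 1357 calls at day 4, the count was 1359 with RLE scaling, 1403 with no filter, 1329 with DESeq2, 1330 with voom, 905 with all 10 libraries and no protocol term, 1830 in the fit of all 69 libraries and 1828 in that of 34 day 4 libraries. Calls higher in Trem2 cells fell to 397 with all 10 libraries. Adding the summed brain-marker level to the fit left 323 calls, 209 higher in Grn cells and 114 higher in Trem2 cells, and 315 were shared; the groups do not overlap in that level, so the covariate also carries the group. Leaving out 1 library gave 964 to 1514 calls, 543 to 840 higher in Grn cells and 421 to 674 higher in Trem2 cells. Both targeted genes kept their calls in the 18 settings, with Grn from -2.27 to -1.75 (without a library, -2.27 to -2.02) and Trem2 from 1.37 to 1.65 (without a library, 1.40 to 1.65). At day 13, leaving out 1 library gave 2681 to 4527 of 4536 calls, the lowest without Grn replicate 3, where 1 Grn library is assumed to vary like the Trem2 libraries. Whether replicate numbers pair the samples cannot be told from 4 pairs. Deviations of the 4 same-numbered pairs correlated at -0.04 to 0.23, 1 of them over 0.1. Those of differently numbered pairs correlated at -0.23 to 0.11. With the replicate block 1872 genes were called, 980 higher in Grn cells and 892 higher in Trem2 cells, with 16 interferon-stimulated and 11 cell cycle members. Of 126 other called named genes, 62 lost the call with the brain-marker covariate, 27 with all 10 libraries and at most 16 in any other setting, and none reversed.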
